A study of Homo sapiens with 3 samples.

Results

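The genes described here encode the respiratory chain of mitochondria and the ATP synthase that it drives, together with the factors that assemble these complexes. They were taken by current gene symbol, namely symbols that start with NDUFA, NDUFB, NDUFC, NDUFS, NDUFV, UQCR or ATP5, those with COX and a digit, and SDHA to SDHD. RefSeq lists 118 such genes when pseudogenes without a transcript are left out, and 12 of them had no matched probe. The remaining 106 genes, out of 19699 named on the arrays, were analysed through 132 probes. Of these, 102 code for proteins and 4 do not. COX1, COX2 and COX3, which lie in the mitochondrial genome, are among the genes without a matched probe, so the values below concern subunits and factors encoded in the nucleus.

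PANC-1, a human pancreatic carcinoma line kept in culture, was grown without an agent, with cantharidin or with okadaic acid. Both agents inhibit the protein phosphatase PP2A, and the study used them side by side for that reason. The sample labels give 20 µM for each agent, for 24 h, while the description of the series can be read as giving that dose for cantharidin alone, and no vehicle is named for the control cells. Each condition was measured on 1 single-colour oligonucleotide array, so there were no replicates, the differences carry no p-values, and their repeatability is unknown. A level is the log2 intensity of a gene's probe minus the 75th percentile of its array, and a level of 0 therefore stands for that percentile. A gene entered a comparison if at least 1 of the arrays compared showed its probe well above background, and was called higher or lower at 1.5-fold. Position on the slide went with the condition, and these cannot be told apart.

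Signals well above background were found for 104 genes of the group in control cells, 103 with cantharidin and 101 with okadaic acid, and for COX7B2 and UQCRBP1 on no array. Replicate spots of 1 probe gave a median SD of 0.06, 0.09 and 0.068 on the 3 arrays in that order, a spread that covers spot noise and leaves out differences between cultures. Keratins KRT7, KRT8, KRT18 and KRT19, vimentin and SOX9 were well above background on all arrays, while the epithelial cadherin CDH1 was well above background in control cells alone. For other cell types, 4 of 5 acinar and islet markers and 3 of 4 blood and endothelial markers were also well above background on each array, at levels between -3.14 and 0.01, and their part in the results was not tested. All samples came from a single cultured line, and fewer cells in a given state cannot be told apart from less RNA per cell. COX4I2, COX6A2 and COX10 lay in the same range of levels as these markers. Genes called below lay there on some arrays, among them COX19 in control and okadaic acid cells, COX15 with either agent and COX8C with cantharidin. NRF1 and GABPA, regulators read beside the group, lay in this range on all arrays. A signal well above background at such levels does not by itself establish expression.

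The respiratory chain passes electrons from food-derived carriers to oxygen. Complex I takes them from NADH and complex II from succinate, both hand them to ubiquinone, complex III passes them to cytochrome c, and complex IV reduces oxygen with them. Complexes I, III and IV pump protons out of the matrix, and ATP synthase lets protons flow back to make ATP. Cancer lines often draw on glycolysis as well, and most of the subunits are nonetheless abundant transcripts in nearly every cell.

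With cantharidin, signals for the respiratory genes lay mostly below those of control cells. Of 104 genes compared, 57 were at least 1.5-fold lower and 4 at least 1.5-fold higher, with a median log2 difference of -0.69. Over all 16644 genes compared, 34.1% were lower and 27.5% higher, and the median was -0.16. Respiratory transcripts are brighter than most, so genes with a mean level at or above the first quartile of the group, 2.84, were also counted. Of the 2186 genes of that brightness, 29.0% were lower and 30.4% higher, with a median of -0.03, against 45 lower and 2 higher among the 79 respiratory genes within them, with a median of -0.69.

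Okadaic acid gave 48 lower and 4 higher genes out of 104, with a median of -0.51. Among all 16166 genes compared, 28.8% were lower and 28.1% higher, with a median of 0.01. For the bright genes these shares were 30.0% and 29.3% with a median of -0.05, and the 79 respiratory genes among them held 37 lower and 3 higher with a median of -0.54. The 2 comparisons share the control array, so their values are set side by side for each gene and are not independent of each other.

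The falls were spread over the complexes unevenly. Medians with cantharidin were -0.86 for complex I, -0.85 for complex II, -0.84 for complex III, -0.43 for complex IV and -0.78 for ATP synthase. With okadaic acid they were -0.70, -0.78, -1.04, -0.28 and -0.85 in the same order. Taking the median of each gene's probes, in place of the brightest probe, put complex II at -1.34 and -1.48, and without scaling the medians with okadaic acid were -0.45 for complex I and -0.03 for complex IV. By these medians complex IV lay closest to the control among the complexes in both comparisons. Under each agent 4 of its 16 genes were lower, beside 34.1% of all genes with cantharidin and 28.8% with okadaic acid. So few genes cannot be set apart from these shares. The 16 include the dim tissue forms COX4I2, COX6A2, COX7A1 and COX8C, none of them lower, and the testis form COX6B2, which was lower under both. The median of complex IV without such forms was not tested. No subunit of complex I, II or III or of ATP synthase was called higher under either agent. Assembly factors held calls in both directions, as did all genes, of which 27.5% were higher with cantharidin and 28.1% with okadaic acid.

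**Figure D1:**
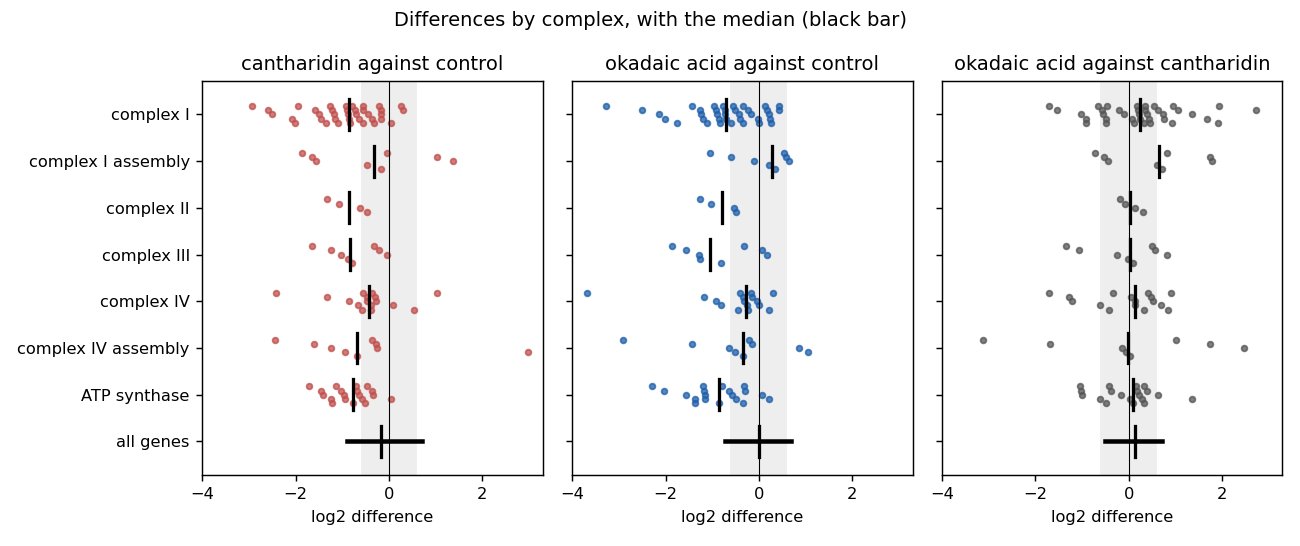
Log2 difference in scaled signal of each respiratory gene (points, 1 per gene) by complex for the 3 comparisons, with the median of each complex as a black bar, and for all genes the median and the range from the lower to the upper quartile. The shaded band marks differences under 1.5-fold. Points of complexes I to III and of ATP synthase lie mostly to the left of zero in both comparisons with control, with medians from -1.04 to -0.70.

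Many of these genes share promoter motifs, which is why some promoters are shown. NRF1 and GABP, an ETS-family factor, are known activators of respiratory genes, and YY1 motifs are common near their starts. RefSeq promoter windows on GRCh38.p14, from 250 bases before to 50 after the start, were on hand for 85 of the protein-coding genes. GCATGCGC, the core of the NRF1 motif, was found on either strand in 20% of them against 3.27% of all 27305 promoters. That wider set was not limited to protein-coding genes. CCGGAAGT, the ETS motif, was in 15.3% against 4.44%, and AAGATGGC, the YY1 motif, in 14.1% against 3.03%. The core of the NRF1 motif nearly mirrors itself, so matches on both strands can overlap, and promoters rather than matches were counted. The 140 bases before the start of 4 genes that hold an upstream match are given here 5′ to 3′ on the strand of the gene, with capitals for matches to the NRF1 or ETS letters or to their reverse complements.
COX5B, chr2:97645922-97646061, plus strand: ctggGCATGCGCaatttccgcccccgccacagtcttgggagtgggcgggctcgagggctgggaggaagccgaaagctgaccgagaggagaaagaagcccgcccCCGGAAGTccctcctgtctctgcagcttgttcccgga
SDHD, chr11:112086733-112086872, plus strand: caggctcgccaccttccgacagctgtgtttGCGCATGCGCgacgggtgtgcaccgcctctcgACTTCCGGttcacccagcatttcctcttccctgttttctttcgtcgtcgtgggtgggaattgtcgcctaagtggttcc
ATP5F1C, chr10:7788037-7788176, plus strand: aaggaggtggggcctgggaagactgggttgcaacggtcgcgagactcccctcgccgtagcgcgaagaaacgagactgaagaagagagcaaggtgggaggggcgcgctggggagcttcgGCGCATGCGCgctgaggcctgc
ATP5PD, chr17:75046970-75047109, minus strand: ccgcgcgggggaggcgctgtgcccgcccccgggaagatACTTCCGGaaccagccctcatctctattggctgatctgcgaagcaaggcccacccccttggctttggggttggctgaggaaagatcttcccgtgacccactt

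In SDHD and ATP5F1C the capitals mark an overlap of the NRF1 core with its reverse complement, and the ETS letters of SDHD and ATP5PD are on the opposite strand. COX5B holds both motifs, and a further ETS match of this gene runs across its start and is not in capitals. Genes with and without a motif had nearly the same median with cantharidin. Of 34 genes with any of the 3 motifs, 20 were lower with a median of -0.68, and of 50 without, 28 were lower with a median of -0.70. With okadaic acid the counts were 19 of 34 and 19 of 50, with medians of -0.78 and -0.34. A match describes the letters in the window and not the binding of a factor. SDHD, ATP5F1C and ATP5PD were lower under both agents, and COX5B was lower with cantharidin, with values given under their complexes. The genes shown were picked as examples. Other genes with a motif, such as COX17, COX6A1 and SDHB, were within 1.5-fold of control under both agents.

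Complex I, the largest of the complexes, gave the largest number of falls. With cantharidin 24 of its 37 subunits were lower and with okadaic acid 20. The steepest fall with cantharidin was that of NDUFV2, an iron-sulfur subunit next to the site where NADH is oxidised. Its level was 5.15 in control cells, 2.22 with cantharidin and 3.91 with okadaic acid, which made it 7.61-fold and 2.37-fold lower. NDUFV1, its partner, which binds NADH and the flavin, lay at 5.89, 5.03 and 4.46, so it was 1.81-fold lower with cantharidin and 2.69-fold lower with okadaic acid. NDUFS1, the iron-sulfur subunit that takes over the electrons, read 3.58, 2.43 and 2.65. These subunits were thus lower with both agents, NDUFV2 and NDUFS1 most with cantharidin and NDUFV1 most with okadaic acid.

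The subunits that carry electrons on to ubiquinone varied more. NDUFS7, which holds the last iron-sulfur cluster, fell further with okadaic acid, from 3.25 to 1.25, than with cantharidin, to 2.16. NDUFS8, another iron-sulfur subunit, lay at 6.10, 5.21 and 5.40, a fall of 1.85-fold and 1.63-fold, of which the latter came to a log2 difference of -0.45 in the setting least favourable to it. NDUFS3 stood at 3.69 in control cells, 2.90 with cantharidin, which was lower, and 3.96 with okadaic acid, which was within 1.5-fold. NDUFS3 thus differed from NDUFS7 and NDUFS8, which were lower under both agents.

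Accessory subunits of complex I surround this core and stabilise it. NDUFA7, in the arm that reaches into the matrix, was lower under both agents, with levels of 4.95, 2.45 and 2.81 and falls of 5.64-fold and 4.40-fold. NDUFB5, of the membrane arm, read 5.82, 3.80 and 3.31, which was 4.06-fold and 5.71-fold below control. Its other probe gave log2 differences of -1.95 and -3.17, so both probes of this gene were lower with both agents. NDUFA3, NDUFA8, NDUFA10, NDUFB1, NDUFB2 and NDUFB7 were lower under both as well, with log2 differences from -1.51 for NDUFA3 to -0.70 for NDUFA10 with cantharidin and from -1.26 for NDUFA10 to -0.60 for NDUFB2 with okadaic acid.

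A set of accessory subunits was lower with cantharidin and within 1.5-fold of control with okadaic acid. NDUFB10, of the membrane arm, dropped from 4.90 to 2.31 with cantharidin, a 6.03-fold fall, and read 5.04 with okadaic acid. Its membrane-arm neighbour NDUFB6 had levels of 5.57, 3.50 and 5.41, and NDUFA5, of the matrix arm, 2.33, 0.39 and 2.33. The direct comparison of the agents placed NDUFB10 6.67-fold, NDUFA5 3.85-fold and NDUFB6 3.76-fold higher with okadaic acid. Smaller falls of this kind were seen for NDUFA2, at 5.58, 4.65 and 6.02, and NDUFA1, at 6.61, 5.90 and 6.86. NDUFAB1, the mitochondrial acyl carrier protein, NDUFB3 and NDUFB4 were also called with cantharidin alone, with log2 differences of -0.87, -1.45 and -0.64, against -0.41, -0.52 and -0.55 with okadaic acid. NDUFB4 was 1.56-fold and 1.47-fold below control, so it lay on either side of the threshold with nearly the same difference.

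Other accessory subunits were lower with okadaic acid and within 1.5-fold of control with cantharidin. NDUFV3, which sits near the NADH site, lay at 4.02, 3.80 and 2.27, a 3.38-fold fall with okadaic acid. NDUFS4, needed for the late steps that attach the NADH-oxidising part, read 4.66, 4.50 and 3.47. NDUFA13 had levels of 4.27, 4.09 and 3.17. NDUFA11, a membrane-arm subunit, differed from control by -0.56 with cantharidin and -0.76 with okadaic acid on the log2 scale. That was 1.47-fold and 1.69-fold below control, so it lay on either side of the threshold with similar differences. These subunits were thus lower with okadaic acid and not called with cantharidin.

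A few subunits had 10 spots each on the arrays, which gives their spot noise within an array and not the spread between cultures. NDUFS6, a zinc-binding subunit of the matrix arm, measured 3.54 ± 0.05 in control cells (SD of 10 spots), 2.31 ± 0.08 with cantharidin (9 spots) and 2.63 ± 0.05 with okadaic acid (10 spots). NDUFS5 measured 6.49 ± 0.06, 6.17 ± 0.09 and 6.93 ± 0.05, each over 10 spots. NDUFS6 was lower under both agents, and NDUFS5 was within 1.5-fold of control under both. NDUFB9 and NDUFA9 were above control with cantharidin, by log2 differences of 0.30 and 0.25, and neither passed 1.5-fold. NDUFC1, NDUFA12, NDUFB11, NDUFB8 and NDUFC2 were also within 1.5-fold under both agents by their brightest probe. The other probe of NDUFC2 differed by -1.26 with cantharidin and that of NDUFB8 by -0.64 with okadaic acid, both past 1.5-fold.

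The assembly factors of complex I, proteins that build the complex and leave it, did not follow a single direction. With cantharidin 3 of 8 were lower and 2 higher, with a median of -0.32, beside 34.1% lower and 27.5% higher among all genes. With okadaic acid 2 were lower and 1 higher, with a median of 0.29, beside 28.8% and 28.1% among all genes. So few genes cannot be set apart from these shares. NDUFAF2, a paralog of the subunit NDUFA12, was the gene called higher under both agents, at 2.67 in control cells, 4.04 with cantharidin and 3.31 with okadaic acid. Its rise was 2.58-fold and 1.55-fold, and the latter dropped under 1.5-fold in some of the alternative settings, where its log2 difference ranged from 0.51 to 0.89. NDUFAF7, a methyltransferase that acts during assembly, read 2.33, 3.36 and 2.91, which was 2.04-fold higher with cantharidin and 1.49-fold above control with okadaic acid.

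NDUFAF3, NDUFAF5 and NDUFAF8 were the complex I assembly factors lower with cantharidin. NDUFAF5, which modifies NDUFS7, lay at 1.09, -0.78 and 0.97, a 3.63-fold fall with cantharidin. NDUFAF8, its partner protein, was lower under both agents at 5.46, 3.82 and 4.41. NDUFAF3 stood at 5.95, 4.39 and 6.18, and NDUFAF4, the protein it works with, at 2.02, 1.85 and 2.56. Of these last 2, NDUFAF3 alone was called, 2.95-fold lower with cantharidin. NDUFAF1, which takes part in building the membrane arm, was within 1.5-fold under both at 2.35, 1.88 and 2.71. NDUFAF6, an early-acting factor, read 1.19, 1.14 and 0.61, just past 1.5-fold below control with okadaic acid by this probe, and its other probe differed by -0.89 with cantharidin and -0.25 with okadaic acid.

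Complex II, succinate dehydrogenase, is shared with the citrate cycle and is encoded wholly in the nucleus. With cantharidin 3 of its 4 subunits were lower and with okadaic acid 2. The membrane anchors SDHC and SDHD, which hold the ubiquinone site, were lower under both agents. SDHC lay at 5.39 in control cells, 4.33 with cantharidin and 4.14 with okadaic acid, and SDHD at 3.33, 2.00 and 2.30. All 3 probes of each anchor were past 1.5-fold below control with both agents. SDHB, the iron-sulfur subunit, read 4.84, 4.37 and 4.29, within 1.5-fold under both.

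SDHA, the flavin-bearing subunit that oxidises succinate, depended on the probe. Its brightest probe gave levels of 4.09, 3.46 and 3.60, which was 1.54-fold lower with cantharidin and 1.40-fold below control with okadaic acid. Its other 3 probes gave log2 differences of -1.68 to -1.53 with cantharidin and -2.13 to -1.84 with okadaic acid. The median over the 4 probes put SDHA at -1.60 and -1.92, so its call with okadaic acid rests on the choice of probe. SDHA has near-identical copies in the genome, and binding of such copies by a probe was not tested.

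**Figure D2:**
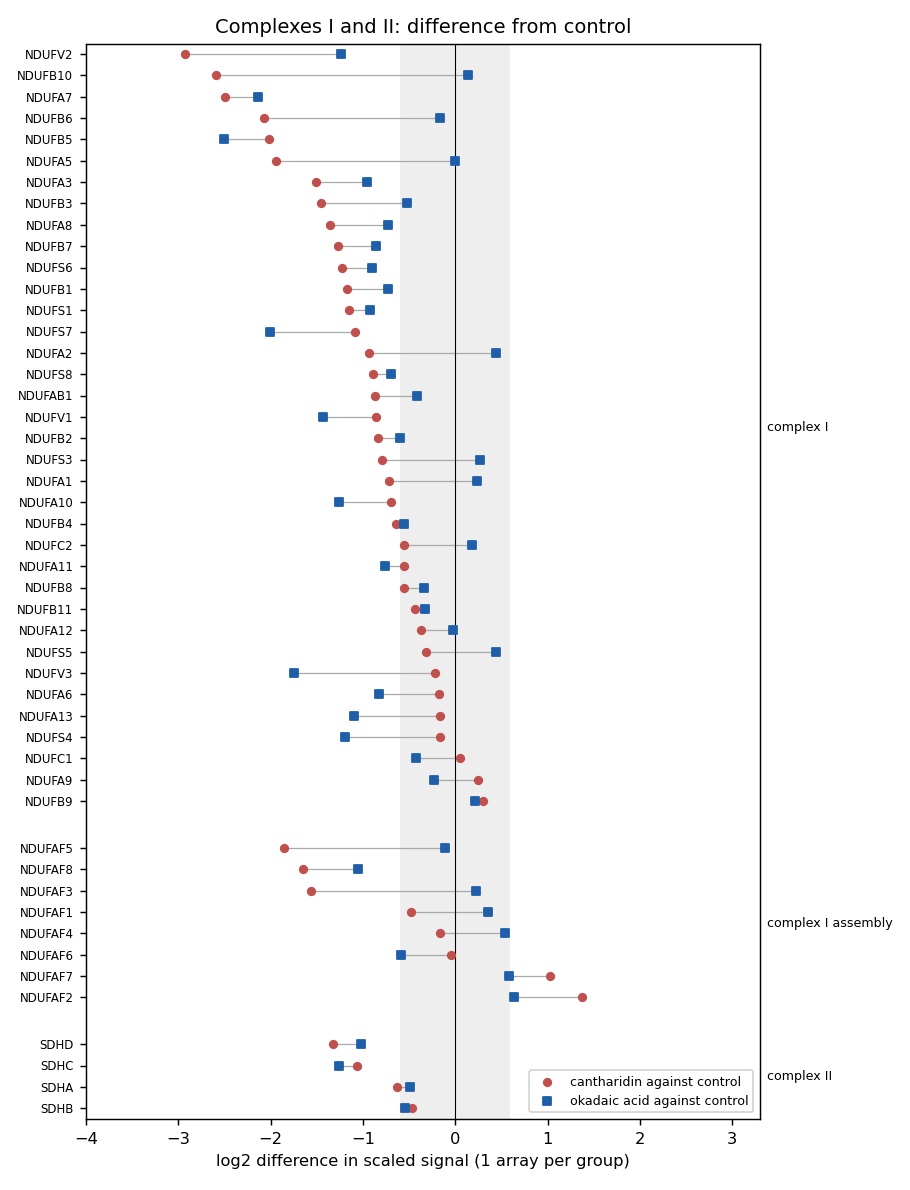
Log2 difference from control in scaled signal for genes of complex I, its assembly factors and complex II, with cantharidin (red circles) and okadaic acid (blue squares), 1 array per condition, ordered by the cantharidin difference. The grey band marks differences under 1.5-fold. NDUFV2 lies lowest with cantharidin at -2.93, NDUFB5 is at -2.51 with okadaic acid, and NDUFAF2 is right of the band for both.

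Complex III oxidises ubiquinol and reduces cytochrome c, and 5 of its 8 genes measured were lower under each agent. UQCRFS1, the Rieske iron-sulfur protein, was at 6.27 in control cells, 6.06 with cantharidin and 4.71 with okadaic acid, a 2.94-fold fall with okadaic acid. UQCRC1, a core protein of the matrix side, read 4.94, 4.14 and 3.07, so it was 1.74-fold and 3.64-fold lower. UQCRC2, the other core protein, differed from it. Its 10 spots measured 4.38 ± 0.03 in control cells, 4.05 ± 0.07 with cantharidin and 4.56 ± 0.05 with okadaic acid (SD), within 1.5-fold of control for both agents.

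Small subunits of complex III were lower more often than not. UQCR10 lay at 6.16, 4.52 and 5.34, with all 3 of its probes past 1.5-fold under both agents. UQCR11 and UQCRB stood at 6.71, 5.68 and 5.43 and at 5.07, 3.83 and 3.81, each lower under both, although the second probe of UQCRB differed by -0.48 and -0.45 and was not called. UQCRQ, at 7.70, 6.83 and 7.39, was lower with cantharidin. UQCRH, the hinge protein that docks cytochrome c, read 7.71, 7.68 and 7.77 by its brighter probe, nearly the same on all arrays. The second probe of UQCRH differed by -0.48 with cantharidin and -0.02 with okadaic acid, within 1.5-fold. UQCRHL, a near copy of UQCRH, had no matched probe, and whether the UQCRH probes also bind it was not tested.

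Cytochrome c and its partners lie outside the symbols of the group and were looked at beside it. CYC1, the cytochrome subunit of complex III, was lower under both agents, at 4.28, 2.53 and 2.61. CYCS, cytochrome c itself, stood at 5.21 in control cells, 5.30 with cantharidin and 6.28 with okadaic acid, a 2.10-fold rise with okadaic acid. HCCS, the enzyme that attaches heme to both cytochromes, read 1.95, 3.98 and 2.66, higher by 4.07-fold and 1.63-fold. The cytochrome subunit, its soluble partner and the heme enzyme therefore each had a different pattern.

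Complex IV, cytochrome c oxidase, was the complex with the fewest falls for its size, in a count that includes dim tissue forms. Under each agent 4 of its 16 genes were lower, beside 34.1% of all genes with cantharidin and 28.8% with okadaic acid. COX4I1, a subunit through which ATP regulates the enzyme, read 5.21, 5.29 and 4.87, and COX5A 5.81, 5.23 and 5.37, within 1.5-fold in both cases. With cantharidin COX5A differed by -0.58, next to the threshold, and by -0.72 without scaling. The count of lower genes thus leaves out some that are close to a call. COX5B, a zinc-binding subunit, was 1.58-fold lower with cantharidin, at 5.71, 5.05 and 5.47, although its difference reached as little as -0.55 under other settings. COX7C, with 10 spots per array, measured 8.00 ± 0.10, 7.62 ± 0.08 and 7.68 ± 0.11 (SD). COX6C and COX7B, small membrane-spanning subunits, were lower with cantharidin alone, at 6.47, 5.15 and 6.06 and at 6.22, 5.37 and 6.22. COX8A and COX7A2 were lower with okadaic acid alone, at 7.86, 7.56 and 6.95 and at 8.17, 7.70 and 7.36, and both fell short of 1.5-fold in at least 1 other setting, with smallest log2 differences of -0.51 and -0.50.

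Several subunits of complex IV exist as paralogs with different tissue patterns. The forms typical of muscle, COX6A2 and COX7A1, and the lung form COX4I2 had levels below -1 on each array where they were measured, and none was called against control. COX6A2 read -1.45, -1.84 and -1.14, and COX4I2 -1.48, -1.96 and -1.63. COX7A1 was at -4.33 and -4.60 in control and cantharidin cells and not well above background with okadaic acid. COX8C, a testis form, was dim too, at -3.15, -2.11 and -3.33. Its 2.06-fold rise with cantharidin ranged from 0.48 to 1.34 on the log2 scale over the settings tried. The ubiquitous forms COX6A1 and COX6B1 stood at 7.71, 7.34 and 7.48 and at 6.18, 5.62 and 6.15, within 1.5-fold of control. With cantharidin COX6B1 differed by -0.56, near the threshold, and by -0.70 without scaling.

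COX6B2, the testis form of the subunit COX6B, showed the steepest fall of the group with okadaic acid. Its brighter probe read 4.84, 2.41 and 1.15, a fall of 5.37-fold with cantharidin and 12.9-fold with okadaic acid. The other probe of the gene read -0.39, -0.62 and -0.68, with log2 differences of -0.24 and -0.29, and did not pass 1.5-fold. The 2 probes thus disagree in size, and what each binds was not tested.

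COX7A2L, which helps to join complexes III and IV into supercomplexes, moved differently with the agents. It was at 6.20 in control cells, 6.72 with cantharidin and 5.01 with okadaic acid, so it was 1.44-fold above control in one and 2.27-fold lower in the other. Its second probe gave log2 differences of 0.34 and -1.72. Against cantharidin, okadaic acid left the gene 3.28-fold lower. A related case is COXFA4, formerly NDUFA4, now counted as a subunit of complex IV and outside the symbols of the group. It lay at 7.94, 6.89 and 8.23, 2.06-fold lower with cantharidin. Its paralog COXFA4L2 was well above background with cantharidin alone, where it was at least 2.23-fold higher than in control cells.

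The assembly factors of complex IV, 9 genes from COX10 to COX20, held the widest range of differences with cantharidin, from -2.45 to 2.98 on the log2 scale. COX19, a protein of the intermembrane space linked to copper delivery, had the largest rise of the group. Its level was -2.31 in control cells, 0.67 with cantharidin and -2.47 with okadaic acid, a 7.89-fold rise with cantharidin. Its log2 difference of 2.98 ranged from 2.28 with normexp background correction to 3.26 in the deposited table. COX17, the copper chaperone, read 4.76, 4.39 and 4.25, within 1.5-fold. COX11, which inserts copper, fell 5.48-fold and 2.69-fold, with levels of 3.58, 1.13 and 2.16. Its other probe gave log2 differences of -3.24 and -2.79.

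COX14 and COX16 were the genes called in opposite directions under the agents. COX14, which supports the synthesis of COX1 in mitochondria, read 5.69 in control cells, 4.08 with cantharidin and 6.56 with okadaic acid. That made it 3.04-fold lower and 1.83-fold higher, and 5.58-fold apart between the agents. COX16, which acts in the maturation of COX2, read 2.99, 2.30 and 4.05, so it was 1.61-fold lower and 2.08-fold higher. COX20, which also attends COX2, was within 1.5-fold of control at 3.94, 3.67 and 3.61 by its brighter probe, while its dimmer probe gave log2 differences of 0.51 and -1.09.

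Heme A, the cofactor of complex IV, is made by COX10 and COX15 in turn. COX15 lay at 0.23, -1.01 and -2.69, a fall of 2.36-fold and 7.55-fold. Its second probe gave log2 differences of -0.16 and -1.07, so the fall with okadaic acid was seen by both probes and that with cantharidin by the brighter probe. COX10 read -1.69, -1.96 and -1.92, within 1.5-fold. COX18, a membrane insertase for COX2, was well above background in control cells alone, at -3.90, which made it at least 1.91-fold lower with cantharidin and at least 1.08-fold lower with okadaic acid. Both calls therefore rest on signals not well above background, and the bound with okadaic acid is under 1.5-fold.

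**Figure D3:**
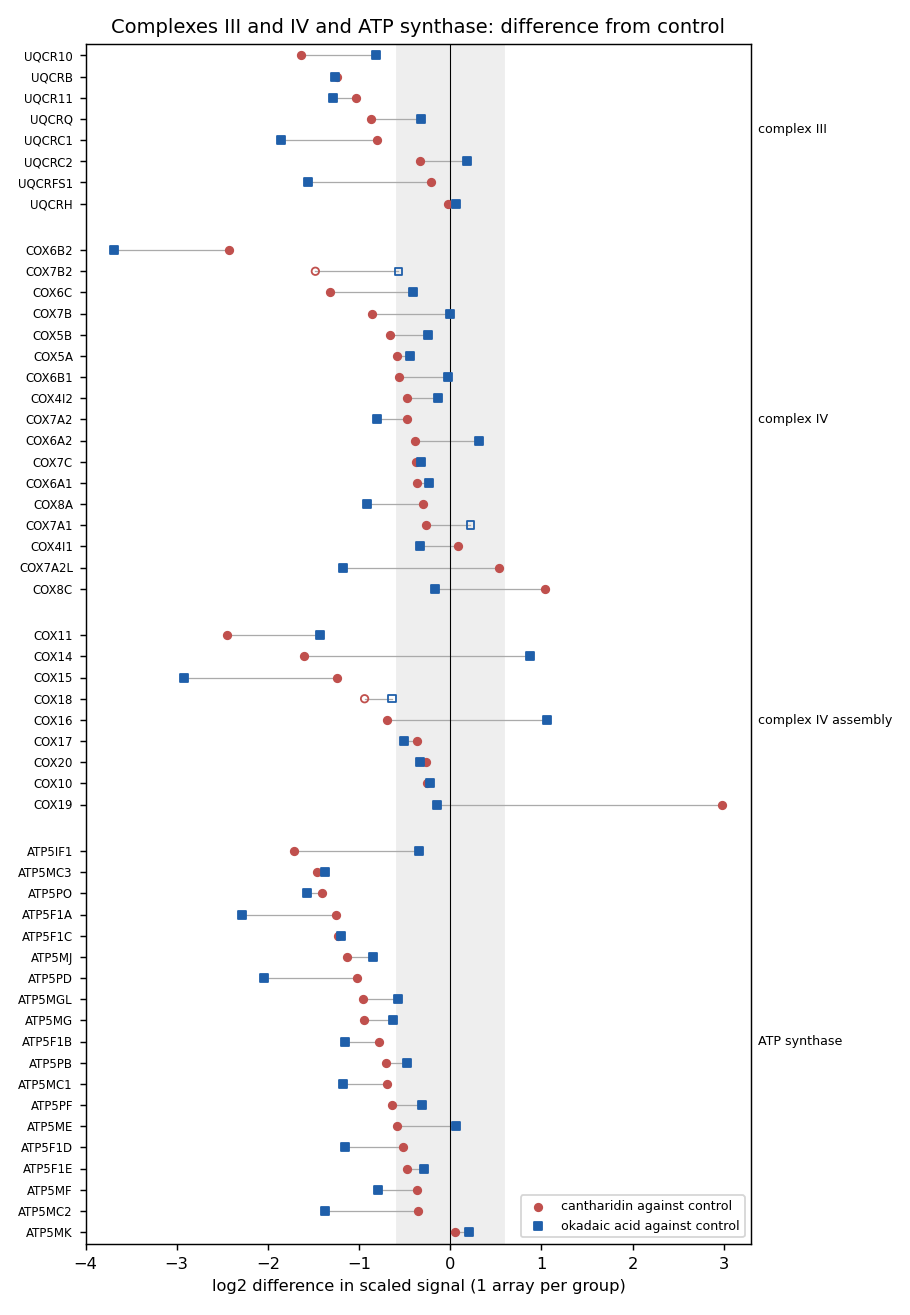
Log2 difference from control in scaled signal for each gene of complexes III and IV, the assembly factors of complex IV and ATP synthase, with cantharidin (red circles) and okadaic acid (blue squares), 1 array per condition. Open symbols mark genes not well above background on 1 or both arrays, and the grey band differences under 1.5-fold. COX19 stands alone on the right with cantharidin at 2.98, and COX14 and COX16 lie on opposite sides of the band.

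ATP synthase consists of a catalytic head, a rotor, a stalk that holds the head in place and small membrane subunits. With cantharidin 13 of the 19 genes with ATP5 symbols were lower and with okadaic acid 12. These 19 include the inhibitor ATP5IF1 and the near copy ATP5MGL, both called lower with cantharidin alone. ATP5F1A, the alpha subunit of the head, was at 5.56 in control cells, 4.31 with cantharidin and 3.27 with okadaic acid, a fall of 2.38-fold and 4.90-fold. ATP5F1B, the beta subunit that holds the catalytic sites, read 6.36, 5.58 and 5.20, lower by 1.72-fold and 2.23-fold. ATP5F1C, the gamma subunit that turns inside the head, lay at 2.84, 1.61 and 1.64, 2.35-fold and 2.30-fold lower. ATP5F1A, ATP5F1B and ATP5F1C were therefore lower with both agents. ATP5F1D, in the foot of the rotor, was lower with okadaic acid, at 3.83, 3.31 and 2.69, and ATP5F1E, next to it, was within 1.5-fold at 7.33, 6.86 and 7.05.

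The ring of c subunits is encoded by 3 genes, ATP5MC1, ATP5MC2 and ATP5MC3, that give the same mature protein. ATP5MC3 read 6.98, 5.52 and 5.61, and was 2.75-fold and 2.59-fold lower. ATP5MC1 stood at 3.69, 3.00 and 2.51, 1.61-fold and 2.26-fold lower. ATP5MC2, at 6.58, 6.23 and 5.21, was 2.58-fold lower with okadaic acid and 1.28-fold below control with cantharidin. With okadaic acid all 3 were lower, and with cantharidin all but ATP5MC2.

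Stalk subunits included some of the larger falls of the enzyme. ATP5PO, which ties the stalk to the head, had levels of 6.19, 4.78 and 4.62, lower by 2.65-fold and 2.96-fold. ATP5PD read 5.96, 4.94 and 3.93, lower by 2.03-fold and 4.10-fold. ATP5PB and ATP5PF, at 3.91, 3.21 and 3.43 and at 5.71, 5.07 and 5.39, were lower with cantharidin alone.

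Small membrane subunits were mixed. ATP5MG and ATP5MJ were lower under both agents, at 7.48, 6.53 and 6.85 and at 4.42, 3.29 and 3.57. ATP5MGL, a near copy of ATP5MG, lay at 5.17, 4.21 and 4.60, and cross-binding between the pair was not tested. ATP5MF was lower with okadaic acid, at 5.23, 4.86 and 4.44. ATP5ME read 5.13, 4.55 and 5.19, within 1.5-fold, and ATP5MK, at 7.50, 7.55 and 7.71, differed least from control among the genes of the enzyme with cantharidin.

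ATP5IF1 encodes the inhibitor that blocks ATP synthase from running backwards. It lay at 6.28 in control cells, 4.57 with cantharidin and 5.94 with okadaic acid, 3.27-fold lower with cantharidin and within 1.5-fold with okadaic acid. Its second probe gave log2 differences of -1.80 and -0.49. With okadaic acid the inhibitor was 2.59-fold higher than with cantharidin, while ATP5F1A was 2.06-fold lower.

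**Figure D4:**
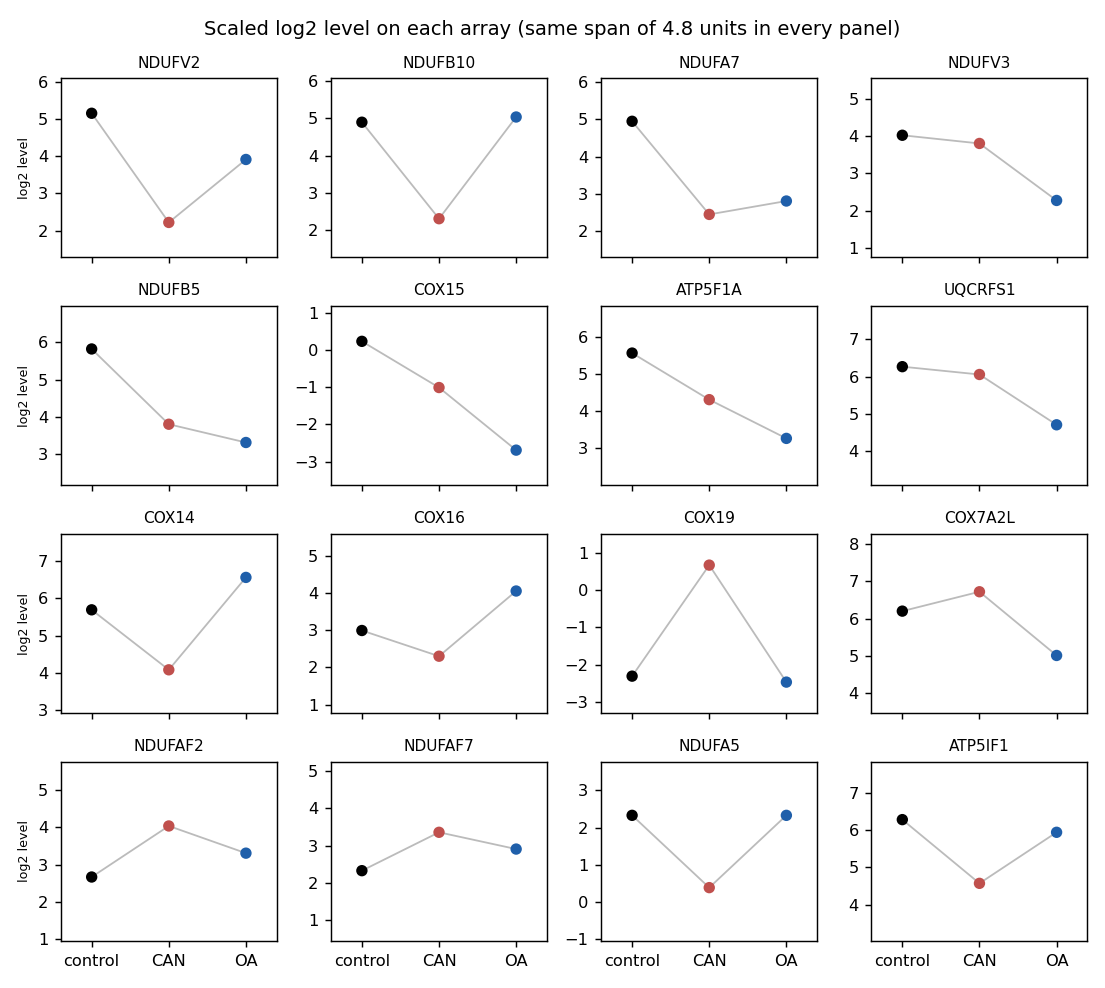
Scaled log2 level on the control, cantharidin (CAN) and okadaic acid (OA) arrays for 16 genes of the group, 1 point per array, with the same vertical span in each panel and thin lines that only join the points. NDUFB10, NDUFA5 and ATP5IF1 are low with cantharidin alone, UQCRFS1 and COX7A2L with okadaic acid alone, and COX19 is high with cantharidin alone.

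Set directly against each other, the agents did not separate the group as a whole. With okadaic acid 26 of 103 genes were higher than with cantharidin and 19 lower, with a median of 0.14. All genes gave 29.5% higher and 22.3% lower with a median of 0.13, and the bright genes 23.2% and 23.7% with a median of -0.09. By complex, complex I held 11 higher and 6 lower subunits, its assembly factors 5 higher and 1 lower, and ATP synthase 2 higher and 4 lower. Complex II held none past 1.5-fold. The median of the group changed sign to -0.01 when arrays were scaled to their median. The genes furthest apart were COX19, 8.77-fold lower with okadaic acid than with cantharidin, and NDUFB10.

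Of the 4 genes that do not code for proteins, NDUFA6-DT was called. This transcript starts next to NDUFA6 in the opposite direction and read -1.24, -1.26 and 0.08, 2.51-fold higher with okadaic acid, and its second probe gave a log2 difference of 1.40. NDUFA6 itself, an accessory subunit of complex I, was 1.78-fold lower with okadaic acid, at 4.94, 4.76 and 4.10. NDUFB2-AS1 was within 1.5-fold, at -0.51, -0.42 and -0.68. NDUFAF4P1, a pseudogene named on the arrays, was near the floor at -4.40 and -4.50 in control and cantharidin cells.

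Regulators of respiratory genes were read beside the group. Of 12, 2 were higher and 4 lower with cantharidin, and 4 were higher and 4 lower with okadaic acid, with medians of -0.30 and -0.01, beside 27.5% higher and 34.1% lower, and 28.1% higher and 28.8% lower, among all genes. GABPB1, the partner subunit of GABP, was higher under both agents, at 0.79, 4.11 and 3.12, a 9.96-fold and 5.01-fold rise. GABPA, the subunit that binds DNA, read -0.04, -0.32 and -1.09 and was lower with okadaic acid. NRF1 was lower under both, at -1.85, -2.84 and -2.81, and YY1 was lower with cantharidin, at 4.12, 2.95 and 3.87. PPRC1, a coactivator of the PGC-1 family, rose with both, at 1.77, 3.59 and 2.70. PPARGC1A, the founding coactivator, was well above background in control cells alone, at a level of -4.45. It is 1 of the 4 lower regulators under each agent, and both calls rest on signals not well above background. With cantharidin it was at least 1.49-fold lower, and with okadaic acid no such bound could be given. TFAM, which packages mitochondrial DNA, stood at -0.23, -0.38 and -0.20, within 1.5-fold. TFB2M, needed to start transcription there, read 1.79, 2.01 and 3.41, 3.09-fold higher with okadaic acid. TFB1M moved the other way, at 0.91, 0.24 and -0.70, lower by 1.60-fold with cantharidin and 3.06-fold with okadaic acid. POLRMT was within 1.5-fold under both, at 1.96, 2.51 and 1.91.

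Assembly factors with other symbols were read in the same way. Of 27 compared, 17 were lower and 3 higher with cantharidin, and 12 lower and 4 higher with okadaic acid, with medians of -0.76 and -0.24, where all genes gave 34.1% lower and 27.5% higher with cantharidin and 28.8% and 28.1% with okadaic acid. SDHAF4, which helps to mature SDHA, had levels of 2.71, -0.18 and -1.73, a 7.41-fold and 21.6-fold fall. SDHAF3, which acts on SDHB, read 2.32, -0.48 and 2.17, lower with cantharidin alone. NUBPL, which delivers iron-sulfur clusters to complex I, lay at -0.20, -3.41 and -3.29, and ACAD9, an assembly factor of complex I, at 2.53, -0.12 and 1.17. SDHAF1, an iron-sulfur factor of complex II, stood at 3.47, 3.51 and 4.85, a 2.61-fold rise with okadaic acid.

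Where a gene of the group had more than 1 probe, the probes never gave opposite calls. Calls of 21 such genes differed among their probes, as lower or higher against within 1.5-fold, for 5 genes with cantharidin and for 6 with okadaic acid. The median range between the probes of a gene was 0.40 and 0.34 on the log2 scale, well over the spot noise of a difference, 0.11 and 0.09. The widest ranges were those of COX6B2, described above, and among genes with 3 or more probes that of SDHA.

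**Figure D5:**
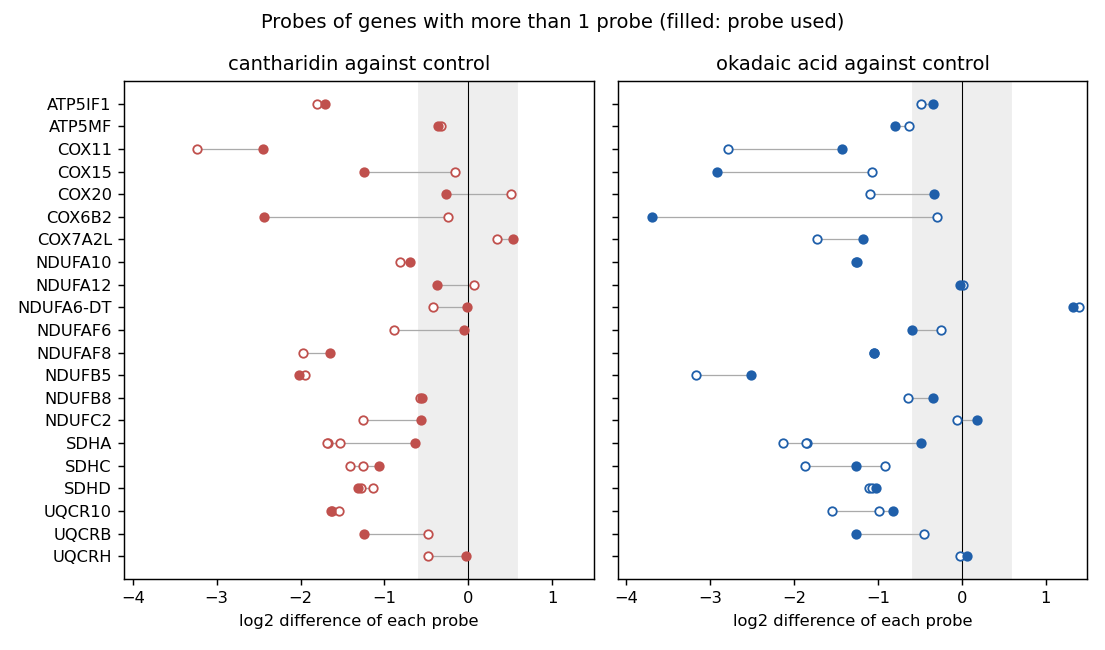
Log2 difference from control of each probe for the 21 genes with more than 1 probe, with cantharidin (left) and okadaic acid (right). Filled points are the probe used for the gene, open points its other probes, lines their range, and the grey band differences under 1.5-fold. The probes of COX6B2 lie from -2.43 to -0.24 with cantharidin, and those of SDHD stay together.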

How the data were processed

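RNA from PANC-1 cells was measured on 3 Agilent single-colour arrays, grouped by sample title, with 1 array per condition. The authors deposited scanner output with spot intensity values from Feature Extraction 11.0.1.1, background-subtracted and detrended within each array, and a table of normalized log2 values, whose scaling is not given in the sources used here. Each column of that table had a median of 7.74 or 7.75.

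Spots with outlier flags were left out and log2 intensities averaged per probe, which left 34041 probes. Levels were set relative to the 75th percentile of the array, which was an intensity of 784.2 in control cells, 712.6 under cantharidin and 936.1 under okadaic acid. Accessions were matched to RefSeq genes of GRCh38.p14, which named 25705 probes. The array annotation used another build, so names alone were carried over, and the promoter windows have RefSeq coordinates. The brightest probe stood for a gene. The values of 1 gene of complex I enter the counts and are not reported here. Named genes were the 5 largest rises and falls per comparison among genes above background on both arrays, genes called in opposite directions, the catalytic core, paralog sets and ATP5IF1. Others were named afterwards to account for the members of each complex. A fold against a signal not well above background is written as "at least". Its base is the dim signal or, if greater, the faintest well-above-background signal of that array, an intensity of 35.0 in control cells, 21.9 under cantharidin and 58.0 under okadaic acid. The members and lists were chosen with earlier results of these data known.

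Alternatives were normexp background correction with an offset of 50, on the median spot intensity, other scalings, filters and probe rules, the deposited table, a 2-fold threshold and, added after the data were seen, protein-coding genes alone. The counting was tested on simulated data. Python 3.11.15 with numpy 2.4.6, pandas 2.3.3 and matplotlib 3.10.9 and R 4.3.3 with limma 3.58.1 were used. The number of arrays limits the precision.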

Additional observations from a re-analysis of the deposited data

How the results depend on the processing

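Against control, the count of lower genes stayed within 1.5 times its value and the overall median below zero in every scaling, background correction and filter tried, and a 2-fold threshold left 35 genes lower with cantharidin and 30 with okadaic acid. The 4 genes higher with okadaic acid became 8 with quantile normalization, 9 with no scaling, 7 in the deposited table and 2 at 2-fold. Without scaling the median was -0.83 with cantharidin and -0.26 with okadaic acid, and for okadaic acid it was -0.64 with scaling to the median and -0.41 in the deposited table. Okadaic acid against cantharidin was the comparison most open to scaling. Its median was -0.01 with scaling to the median and 0.53 without scaling, and its 26 higher genes became 48 without scaling and 13 at 2-fold. Medians by complex in that comparison changed sign for complex II to -0.12 with scaling to the median and -0.20 with the median over probes, and, with scaling to the median, for complex III to -0.11, complex IV to -0.01 and ATP synthase to -0.06. For complex IV assembly factors the median became 0.05 with normexp, 0.38 with no scaling and 0.04 with no filter. The cause was not tested. Scalings also moved the median of all genes, with cantharidin from -0.30 without scaling to -0.09 and with okadaic acid from -0.11 to 0.26, and the median of respiratory genes minus that of all genes stayed between -0.56 and -0.46 with cantharidin and between -0.60 and -0.39 with okadaic acid. No paired analysis was possible because each condition had 1 array. Dim genes such as COX18 and COX7A1 are limited by the background of their array.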

Other observations

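Genes of the citrate cycle, which feeds NADH and succinate to the respiratory chain, were also counted. Of all genes compared, 34.1% were lower and 27.5% higher with cantharidin, with a median of -0.16, and 28.8% lower and 28.1% higher with okadaic acid, with a median of 0.01, and the counts that follow stand beside these shares. Of 13 citrate cycle genes, 9 were lower and 1 higher with cantharidin, with a median log2 difference of -1.17, and 10 were lower with okadaic acid, with a median of -1.01. SUCLG2, a subunit of succinyl-CoA ligase, stood at a level of 3.89 in control cells, 0.80 with cantharidin and -0.91 with okadaic acid, which was 8.49-fold and 27.9-fold lower. FH, fumarase, read 2.43, 0.28 and 0.11, lower under both agents. CS, citrate synthase, was lower with cantharidin, at 5.51, 3.90 and 5.20, and MDH2, malate dehydrogenase, with okadaic acid, at 5.83, 5.51 and 4.28. DLST, a subunit of the oxoglutarate dehydrogenase complex, was called in opposite directions, at -0.04, 0.89 and -1.13.

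Proteins of the mitochondrial ribosome, which translate the subunits encoded in mitochondrial DNA, were counted over 77 protein-coding genes, a restriction added after the data were seen. Of these, 37 were lower and 8 higher with cantharidin, and 30 were lower and 12 higher with okadaic acid, with medians of -0.53 and -0.21. MRPS34 had the steepest fall with cantharidin, at 3.91, 0.44 and 3.15, and MRPS27 with okadaic acid, at 3.50, 1.74 and -0.14. MRPS16 and MRPL57 rose with both agents, at 3.69, 5.57 and 5.74 and at -0.61, 1.34 and 2.27.

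Carriers and channels that supply ATP synthase, 7 genes in all, gave 4 lower and 1 higher with cantharidin and 3 lower with okadaic acid, a list too short to read against the shares of all genes. The ADP/ATP carrier SLC25A5 read 7.62, 6.09 and 6.73, lower under both. The carrier form SLC25A4 stood at -0.85, 0.11 and -0.91, higher with cantharidin. UCP2, an uncoupling-protein family member of the inner membrane, was lower under both agents, at 0.96, -2.10 and -0.23. With 1 array per condition none of these differences has a replicate check.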
